A study of Mus musculus with 20 samples.

Results

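The AP-1 Fos and Jun family was examined in dermal lymphatic endothelial cells (LECs) as 7 genes, Fos, Fosb, Fosl1, Fosl2, Jun, Junb and Jund, of the 24062 gene symbols counted. The genes were taken by symbol, and the family was selected on its measured time-of-day differences in these same libraries. Its differences between time points are therefore given as a description. Members called in tests over all genes are counted, but only as a description. LECs were sorted as live CD31+ podoplanin+ cells from digested ear skin of wild type C57BL/6 mice at postnatal day 56. Zeitgeber time (ZT) counts the hours from light onset, and the groups were ZT1 and ZT7 in the light phase and ZT13 and ZT19 in the dark phase, with 5 libraries each and 20 in all. Every library came from the pooled ears of a pair of mice, no other treatment or genotype was present, and the question was how the LEC transcriptome differs with time of day.

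AP-1 is a dimeric transcription factor in which a Fos protein pairs with a Jun protein, or 2 Jun proteins pair with each other, through a leucine zipper next to the basic region that contacts DNA. Fos proteins do not form stable dimers among themselves, whereas Jun proteins do. Fos, Fosb, Jun and Junb are immediate early genes whose transcripts appear within minutes of a growth factor, stress or flow signal and decay fast, whereas Jund is transcribed more steadily, and Fosl1 (Fra-1) and Fosl2 (Fra-2) usually follow later. Endothelial cells use AP-1 in responses to shear and inflammation, keratinocytes use it in differentiation, and the same transcripts are known to appear when cells are released from tissue by enzymes, as was done here before the sort.

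Of the 6 members past the filter on low counts, the 4 with the widest differences between time points over all 20 libraries are shown with the DNA just upstream of their starts, where signals to these genes are known to act. The place of Jun among these rested on 1 library, as given below. The 250 bases before each RefSeq start (build GRCm38.p6) are printed 5′ to 3′ on the strand of the gene, and capitals mark TGACG, the first bases of the cyclic AMP response element (CRE), TGACATCA, the Jun-type AP-1 site, and TATAAA, the element that places the transcription start. They lie at chr12:85473640-85473889 (plus strand, Fos), chr7:19310046-19310295 (minus strand, Fosb), chr4:95052223-95052472 (minus strand, Jun) and chr8:84978749-84978998 (minus strand, Junb).
Fos: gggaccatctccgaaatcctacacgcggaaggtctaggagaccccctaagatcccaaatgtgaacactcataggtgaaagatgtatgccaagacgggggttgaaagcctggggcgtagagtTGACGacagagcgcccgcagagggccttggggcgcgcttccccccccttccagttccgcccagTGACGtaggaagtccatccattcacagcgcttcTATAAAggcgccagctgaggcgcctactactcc
Fosb: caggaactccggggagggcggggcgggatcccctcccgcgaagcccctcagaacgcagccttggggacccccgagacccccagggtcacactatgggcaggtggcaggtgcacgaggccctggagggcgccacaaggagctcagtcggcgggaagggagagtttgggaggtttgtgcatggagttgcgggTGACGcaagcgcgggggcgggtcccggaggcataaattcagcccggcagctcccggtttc
Jun: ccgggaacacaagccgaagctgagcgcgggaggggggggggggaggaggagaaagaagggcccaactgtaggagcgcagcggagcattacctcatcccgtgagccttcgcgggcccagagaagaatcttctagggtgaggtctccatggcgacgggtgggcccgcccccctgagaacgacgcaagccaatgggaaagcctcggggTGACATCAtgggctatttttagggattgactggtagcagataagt
Junb: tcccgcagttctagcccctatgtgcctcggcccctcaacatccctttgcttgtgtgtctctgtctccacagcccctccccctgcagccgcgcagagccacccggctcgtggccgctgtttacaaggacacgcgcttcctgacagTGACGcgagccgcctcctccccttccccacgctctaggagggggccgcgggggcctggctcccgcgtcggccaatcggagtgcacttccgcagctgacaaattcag

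TGACG stood in the Fos window at bases -129 to -125 and -66 to -62 from the start, in the Fosb window at -60 to -56 and in the Junb window at -106 to -102. The Jun window held TGACATCA at -45 to -38, and the Fos window held TATAAA at -33 to -28. Of 32851 promoter windows of the same length in the table, 17.8% held TGACG, 2.93% TGACATCA and 12.4% TATAAA on either strand. The full CRE TGACGTCA (1.55% of windows, each one also a match to TGACG), the AP-1 site TGAGTCA (4.46%), the E-box CACGTG (6.02%), the D-box TTATGTAA (0.819%) and the serum response element's CArG box (1.47%) were searched on both strands and matched in no member's window. The Fosl2 and Jund windows held none of the searched letters, and Fosl1 has no promoter entry. In GENCODE M21 the Fosl2 gene starts at chr5:32135801, so its window, chr5:32136222-32136471, lies inside the gene. The Jund window, chr8:70697489-70697738, does not adjoin the GENCODE start at 70698949. For both genes the lack of matches does not describe the DNA just before the GENCODE start. A match, or the lack of one, describes the letters of these windows of 250 bases only. Sites farther upstream were not searched, so a missing match does not show that a gene lacks the element. No binding was measured here.

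Libraries differed in how much of their sequence fell on genes. Reads on genes ran from 4475111 to 42002363 per library (median 9379794), or 12.7% to 81.6% of the reads that were counted on a gene or on none, and the median share at ZT19, 64.0%, was above the 24.8% of ZT1, 17.5% of ZT7 and 22.9% of ZT13. ZT7 replicate 2 (62.3%) and ZT13 replicate 5 (79.9%) stood apart from the others of their time points, and member means and differences that turn on them are also given without them. The LEC genes Lyve1 (6393 to 29894 normalized counts) and Prox1 (1276 to 4490) were present in every library, whereas Ccl21a, also an LEC gene, was listed at 0 in all 20. The summed level of 12 keratinocyte markers was lowest at ZT13, with 10267 to 30446 normalized counts, against 34083 to 68760 at ZT1, 59749 to 177341 at ZT7 and 92642 to 182837 at ZT19. The sum of 10 LEC markers ran from 45213 to 109418 and overlapped among the time points, whereas their mean log2 level at ZT19 (9.61 to 10.39) lay below that of every ZT1 (10.67 to 10.90) and ZT13 (10.60 to 10.96) library and overlapped ZT7 (10.29 to 10.66). Its part in the ZT19 values of the members was not tested.

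Fos, the prototype of the Fos proteins, was highest at ZT13 in every library. Its normalized counts (reads scaled to the geometric mean of the effective library sizes) were 2788, 8299, 4517, 3982 and 5785 at ZT1 and 3439, 2928, 2137, 3436 and 4162 at ZT7. They were 9328, 14585, 9156, 14370 and 15529 at ZT13 and 4712, 8716, 7346, 5308 and 5887 at ZT19. All 5 ZT13 libraries lay above the 15 others, and all 5 ZT19 libraries lay above the 5 at ZT7. The mean was 12594 ± 3091 (SD, n = 5) at ZT13 against 3220 ± 748 at ZT7, 5074 ± 2100 at ZT1 and 6394 ± 1625 at ZT19. The fitted log2 difference from edgeR was 1.97 ± 0.36 (SE) from ZT7 to ZT13, 1.31 ± 0.35 from ZT1 to ZT13 and -0.98 ± 0.35 from ZT13 to ZT19. In sorted bulk cells, fewer cells that express a gene and less RNA of it per cell cannot be told apart, and this holds for each member.

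Fosb, a Fos protein best known for its stable splice form in neurons, was likewise highest on average at ZT13. Its libraries gave 511, 866, 925, 1012 and 1106 normalized counts at ZT1, 650, 106, 487, 483 and 732 at ZT7, 2271, 1903, 1619, 1977 and 622 at ZT13, and 283, 293, 328, 516 and 387 at ZT19. Every ZT19 library lay below every ZT13 library, and 23 of the 25 pairs of a ZT7 and a ZT13 library had the higher value at ZT13. Whereas Fos at ZT19 stood above ZT7, the mean of Fosb was lowest at ZT19 (361 ± 95.4, SD, n = 5), with a log2 difference of -2.22 ± 0.41 (SE) from ZT13 and -1.29 ± 0.40 from ZT1. The ZT7 to ZT13 difference was 1.77 ± 0.40. With a term for each library's on-gene share in the model, ZT19 was 0.53 ± 0.40 above ZT7 and the difference from ZT1 was -0.37 ± 0.40.

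**Figure D1:**
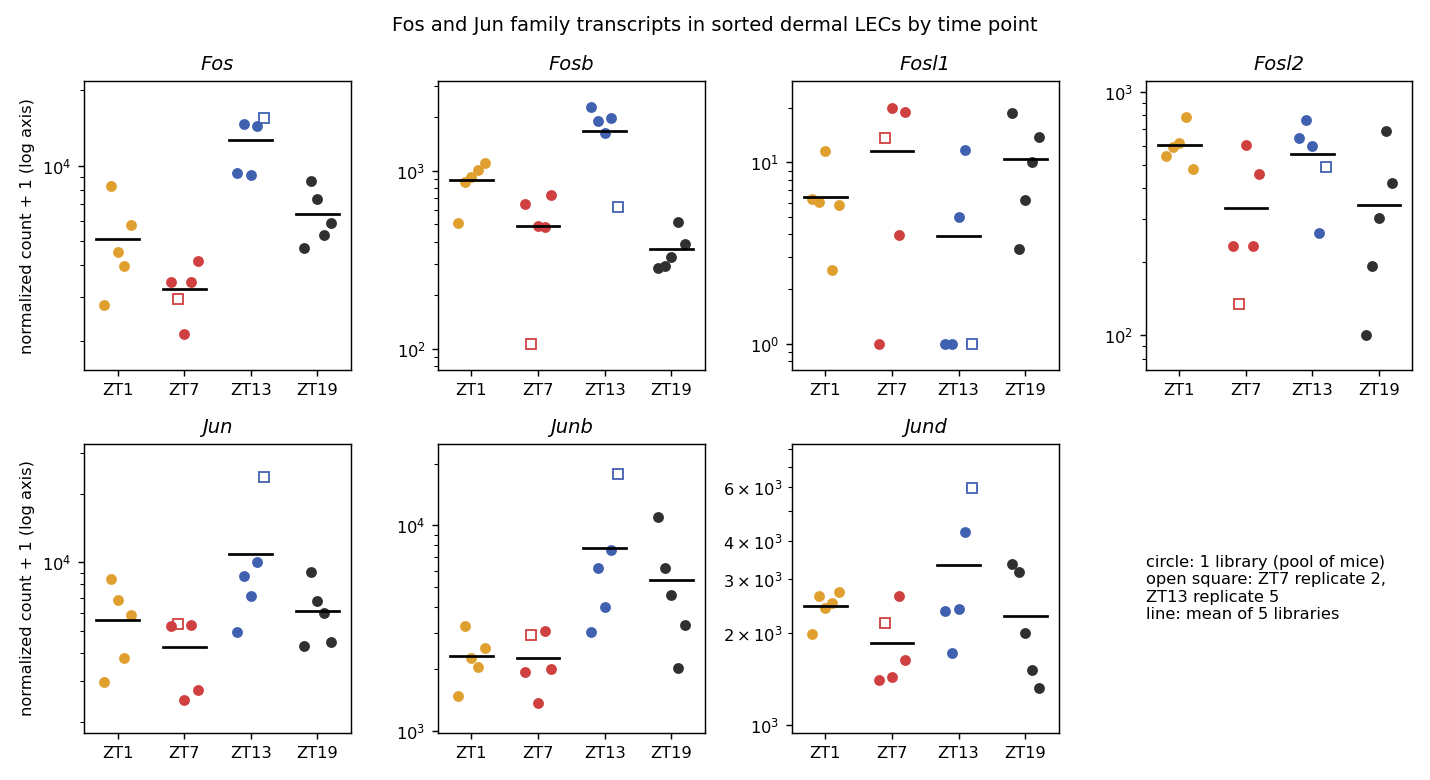
Normalized counts + 1 (log axis) of the 7 genes in each library, with replicates 1 to 5 side by side at each zeitgeber time (ZT), a line at the mean of 5 libraries and open squares for ZT7 replicate 2 and ZT13 replicate 5. All Fos libraries at ZT13 sit at 9156 or more, above every other library, while ZT13 replicate 5 is the lowest of its time point for Fosb and the highest for Jun, Junb and Jund.

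The libraries at low and high Fosb also differed in the share of reads on genes. The low ZT7 and ZT13 values, 106 and 622, came from ZT7 replicate 2 and ZT13 replicate 5. Without ZT13 replicate 5 the mean at ZT13 was 1942 ± 268 (SD, n = 4), and without ZT7 replicate 2 the mean at ZT7 was 588 ± 124 (n = 4). ZT13 remained the time of the highest Fosb mean without either library.

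Fosl2, which encodes Fra-2, had its highest mean at ZT1. The ZT1 mean was 603 ± 116 (SD, n = 5), against 550 ± 188 at ZT13, 340 ± 229 at ZT19 and 331 ± 193 at ZT7, and the ranges of all 4 time points overlapped. Its values at ZT19 ran from 99.3 to 687 and at ZT7 from 133 to 601, a wider spread than the 479 to 788 at ZT1. The log2 difference from ZT7 to ZT13 was 0.74 ± 0.44 (SE), and that from ZT1 to ZT13 was -0.13 ± 0.44, which changed sign when single libraries were left out.

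Fosl1, which encodes Fra-1, was close to the limit of detection. It had between 0 and 69 reads per library, at most 19.04 normalized counts, and did not pass the filter on low counts that the other 6 members passed. No read was counted in ZT7 replicate 1 or in ZT13 replicates 1, 2 and 5, where a count of 0 allows up to 3 reads, or 7.14e-06% to 4.37e-05% of the reads on genes. Per kilobase of exon, its reads were a median of 2.002 times those of 1444 olfactory and vomeronasal receptor genes, which skin should not express (0 to 211 times). Fosl2 was never under 7.39 times, Fosb under 21.0 times or Fos under 317 times that background.

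Jun, the partner that binds either Fos or Jun proteins, was highest on average at ZT13, with overlapping ranges. Its values were 2975, 8477, 6824, 3818 and 5850 at ZT1, 5278, 5360, 2499, 5295 and 2754 at ZT7, 4943, 8712, 7107, 9971 and 23618 at ZT13, and 4304, 9061, 6730, 5960 and 4468 at ZT19. A single library, ZT13 replicate 5, stood far above the others at ZT13, at 23618 against 9971 for the next. The mean at ZT13 was 10870 ± 7370 (SD, n = 5) with it and 7683 ± 2171 (n = 4) without it, against 4237 ± 1474 at ZT7 and 6105 ± 1941 at ZT19. The log2 difference from ZT7 to ZT13 was 1.36 ± 0.42 (SE), and it ran from 0.86 to 1.57 as each library was left out.

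Junb, a weaker activator that can restrain Jun, had its higher means at both night points. Its values were 1470, 3239, 2245, 2046 and 2533 at ZT1, 1929, 2922, 1363, 3073 and 2000 at ZT7, 3012, 6207, 3999, 7605 and 17869 at ZT13, and 10946, 6197, 4591, 2013 and 3285 at ZT19. Of the 25 pairs of libraries, 24 had the higher value at ZT13 than at ZT7 and 23 had the higher value at ZT19 than at ZT7. The log2 difference was 1.78 ± 0.47 (SE) from ZT7 to ZT13, 1.26 ± 0.46 from ZT7 to ZT19 and -0.52 ± 0.45 from ZT13 to ZT19. With a term for the on-gene share in the model, the ZT7 to ZT19 difference was 0.15 ± 0.46 and the ZT13 to ZT19 difference -1.09 ± 0.39. Without ZT13 replicate 5 the ZT7 to ZT13 difference was 1.21 ± 0.42 and the ZT13 mean was 5206 ± 2084 (SD, n = 4), below the 5407 ± 3464 (n = 5) of ZT19, so the order of the means at the night points rested on that library.

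Jund, the member known for steady transcription, varied least between time points. The ZT13 mean was 3333 ± 1740 (SD, n = 5), against 2450 ± 289 at ZT1, 2264 ± 936 at ZT19 and 1849 ± 538 at ZT7, and all ranges overlapped. ZT13 replicates 4 and 5 held 4266 and 5938 normalized counts, whereas the other ZT13 libraries held 1715 to 2394, within the range of ZT7 and ZT19. The log2 difference from ZT7 to ZT13 was 0.85 ± 0.36 (SE). Without ZT13 replicate 5 the ZT13 mean was 2682 ± 1101 (SD, n = 4) and the difference 0.54 ± 0.35 (SE).

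**Figure D2:**
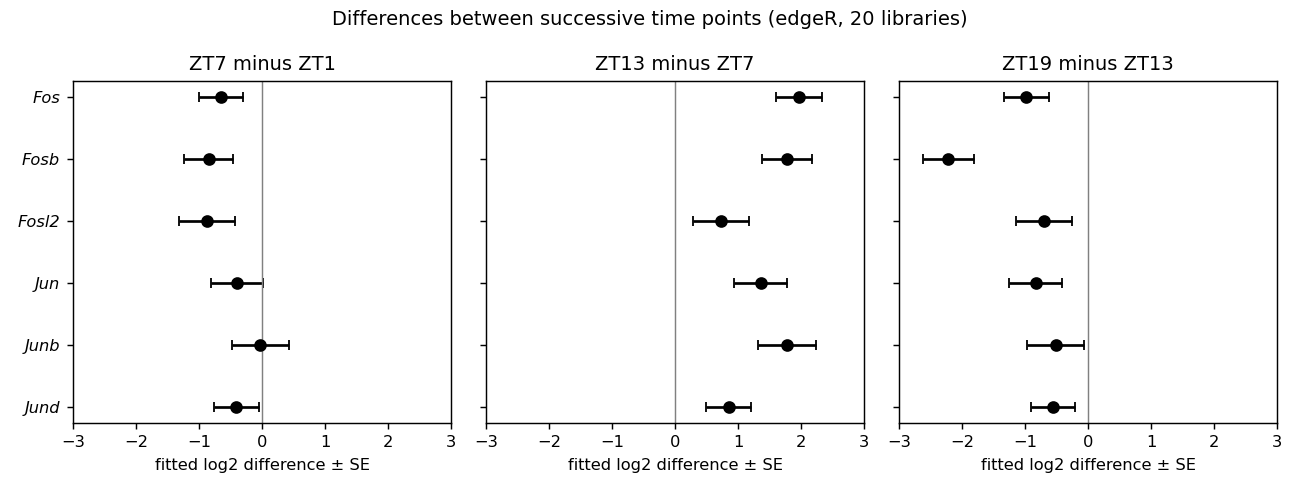
Fitted log2 differences between successive time points from 20 libraries, with bars of 1 SE and no covariate, for the 6 genes that passed the filter on low counts. From ZT7 to ZT13 all 6 lie above 0, from 0.74 for Fosl2 to 1.97 for Fos, and from ZT13 to ZT19 all 6 lie below 0, with Fosb at -2.22. Without ZT7 replicate 2 and ZT13 replicate 5, the ZT13 to ZT19 difference was 0.26 for Junb, -0.06 for Jund and -0.22 for Jun. It was then -0.78 for Fos, -0.71 for Fosl2 and -2.33 for Fosb.

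Side by side, the means of 5 of the 7 members (Fos, Fosb, Jun, Junb and Jund) were highest at ZT13, and those of 5 (Fos, Fosl2, Jun, Junb and Jund) were lowest at ZT7. Without ZT13 replicate 5 the highest mean of Junb was at ZT19, and without ZT7 replicate 2 the ZT7 mean of Fosl2 was 381 ± 182 (SD, n = 4), above the 340 of ZT19. By mean log2 level Fosl2 was lowest at ZT19. Among all 19209 genes tested, 18.1% had their highest mean at ZT13, and 17.4% had their lowest at ZT7. The distance between the highest and lowest mean log2 level was 2.12 for Fosb, 1.96 for Fos, 1.55 for Junb, 1.23 for Jun, 1.10 for Fosl2 and 0.75 for Jund, beside a median of 1.37 over all genes tested. Fosb and Fos were wider than the median gene, and Jun, Fosl2 and Jund narrower. Junb was wider with all libraries and narrower without ZT13 replicate 5, at 1.18 beside a median of 1.39 over all genes without that library. Without it Jun was at 0.89, below the 1.10 of Fosl2, and Jund at 0.50.

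Across all genes, edgeR (quasi-likelihood F-test, p adjusted by Benjamini-Hochberg) called 81 of 19209 genes as differing among the 4 time points, 0.422%, and 2 members, Fos and Fosb, were among them. The 81 became 30 to 178 as each library was left out and 843 without ZT7 replicate 2 and ZT13 replicate 5. At an unadjusted p of 0.05 or less the members were 4 (Fos, Fosb, Jun and Junb) and the share of all genes was 15.7%. For a 24-h curve 6 genes were called, 0.0312%, and none of the members. At an unadjusted p of 0.05 or less for the curve the members were 2 (Fos and Junb) and the share of all genes was 9.23%. DESeq2 called 569 genes among the time points, 3.22% of those given an adjusted p, with Fos, Fosb, Jun and Junb among them, and 75 genes for the curve, 0.683%, with Fos and Junb. The edgeR count of members was 0 without ZT13 replicate 4, 1 (Fosb) without ZT1 replicate 3, ZT7 replicate 3, ZT7 replicate 4 or ZT13 replicate 2, and 3 (Fos, Fosb and Junb) without ZT19 replicate 4. It was also 0 with the keratinocyte marker level as a covariate. Since the same differences selected the family, these counts are a description. Fitted curves, none of them called for a member by edgeR, had their peak at 15.5 h for Fos, 11.3 h for Fosb, 14.9 h for Jun, 15.4 h for Junb and 15.2 h for Jund, and that of Fosl2 was nearly flat, with an amplitude of 0.068 on the log2 scale.

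Compared per length, on the TPM scale (counts per kb of union exon length, scaled to the same total in each library), 4 members made up nearly all of the pool. Over the 20 libraries the mean was 826 TPM for Fos, 616 for Jun, 595 for Junb and 435 for Jund, then 36.4 for Fosb, 12.4 for Fosl2 and 1.02 for Fosl1. Fos was above Jun in 15 of 20 libraries, Jun above Junb in 15 and Junb above Jund in only 9, so the order within these 4 was not stable from library to library. Jund was above Fosb, Fosb above Fosl2 and Fosl2 above Fosl1 in 20 of 20. With the length of the longest transcript in place of the union, Jun was above Junb in 10 and Junb above Jund in 15 libraries.

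The make-up of the pool differed between libraries. Fos genes together were 42.7% ± 9.9 (SD, n = 5) of the summed TPM of the family at ZT13, against 35.3% ± 3.3 at ZT1, 31.0% ± 7.3 at ZT7 and 34.7% ± 8.6 at ZT19. Jun genes held the larger part on average at all 4 time points. At ZT13 the Fos gene alone held 45.8%, 47.5%, 40.5% and 39.6% in replicates 1 to 4 but 25.9% in replicate 5, where Jun and Junb were high. Jund held 23.4% ± 4.8 at ZT1 and 13.9% ± 3.5 at ZT13, with its ZT13 range of 7.88% to 16.6% just below the 16.8% to 29.1% of ZT1. Junb held 14.6% to 16.1% at ZT1 and from 14.4% to 46.7% at ZT19, the top value coming from ZT19 replicate 1.

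**Figure D3:**
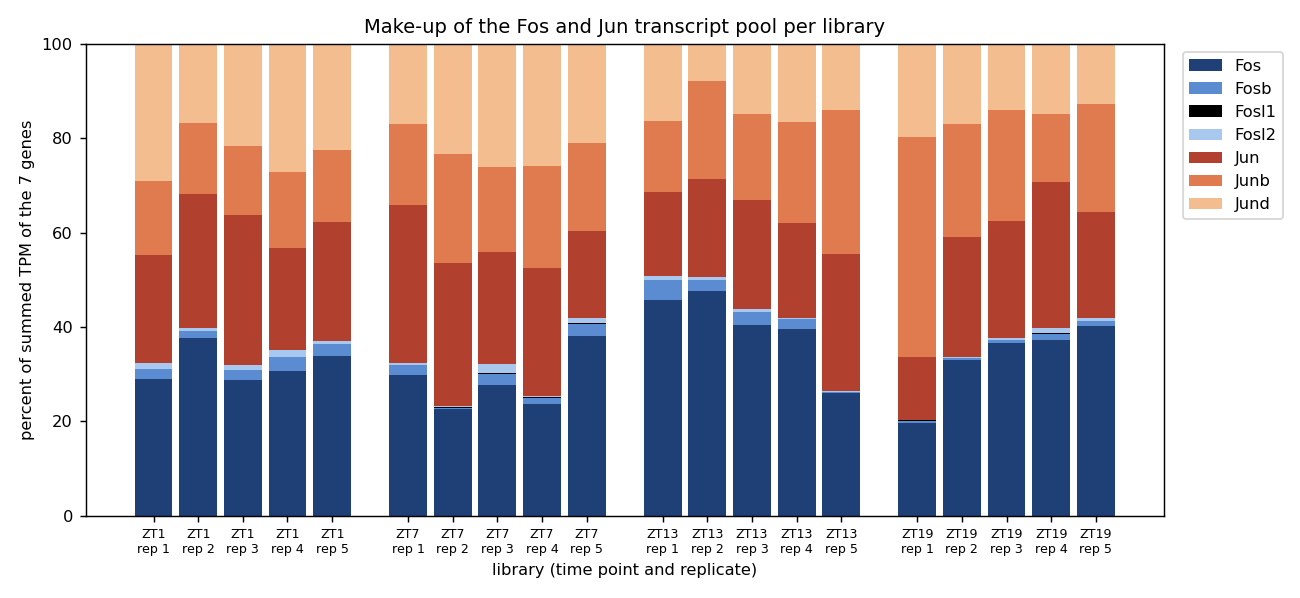
Percent of the summed TPM of the 7 genes held by each gene in each of the 20 libraries, ordered by time point and replicate. Fos genes (blue) reach 50.7% at ZT13 and stand at 20.3% in ZT19 replicate 1, where Junb holds 46.7%, while Fosb, Fosl2 and Fosl1 stay thin bands throughout.

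Across the 20 libraries, Fos, Jun and Junb varied together, as did Jund with Jun and Junb, and Fosb with Fosl2. Pearson's r of log2(normalized count + 1) was 0.81 for Fos and Jun, 0.76 for Jun and Junb, 0.74 for Fos and Junb and 0.74 for Junb and Jund. It was 0.67 for Jun and Jund, 0.64 for Fosb and Fosl2, 0.53 for Fos and Jund and 0.01 for Fosb and Junb. After centring each time point on its own mean, r was 0.71 for Fos and Jun and 0.83 for Junb and Jund, whereas Fos and Fosb went from 0.52 to 0.09, Fosb and Junb stood at -0.50 and Fosl2 and Junb at -0.68. Without ZT7 replicate 2 and ZT13 replicate 5, r over the other 18 libraries was 0.81 for Fos and Jun, 0.62 for Jun and Junb, 0.70 for Fos and Junb, 0.61 for Junb and Jund, 0.55 for Fosb and Fosl2 and 0.01 for Fosb and Junb, and that of Fosl2 and Junb went from -0.37 to -0.58. For Jun and Jund, r was 0.57 after centring and 0.48 without those libraries, and for Fos and Jund 0.32 and 0.41. These are descriptions over 20 libraries in which genes share depth, normalization and sample make-up.

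**Figure D4:**
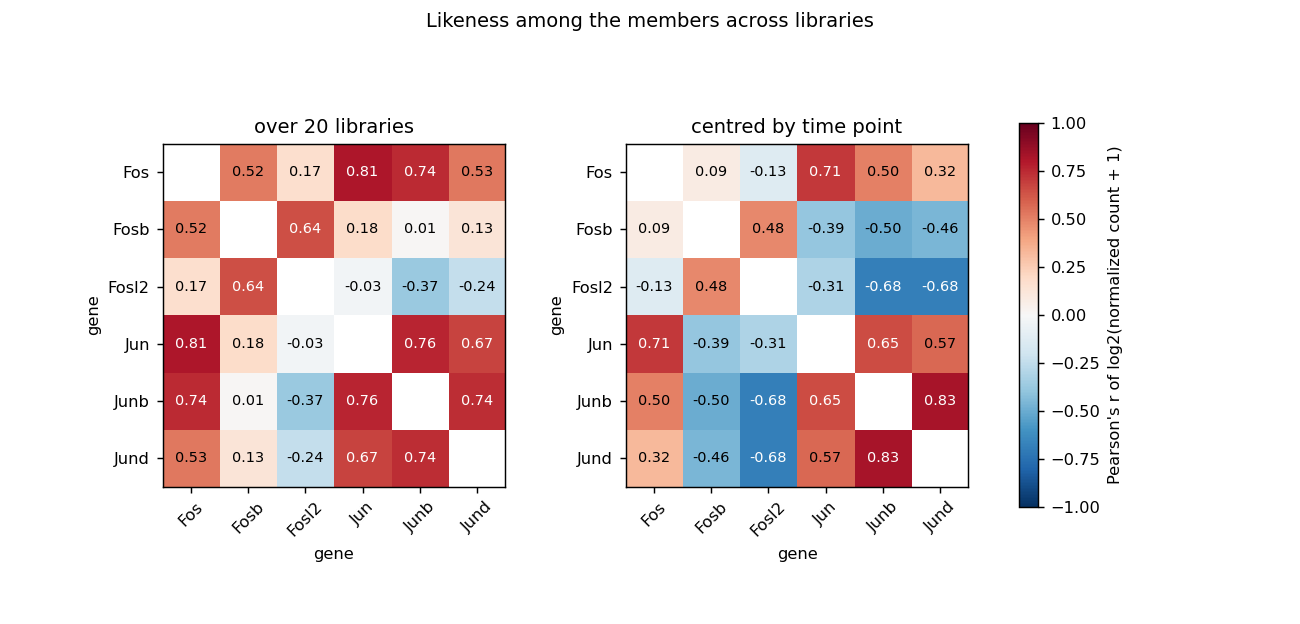
Pearson's r between 6 members over 20 libraries (left) and over the same values centred by time point (right), on a color scale from -1 to 1. Fos and Jun stay together (0.81 and 0.71), Junb and Jund stay together (0.74 and 0.83), and with time points centred Fosb and Fosl2 are negative with Junb (-0.50 and -0.68).

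The genes outside the family whose levels were most like a member's were found among 10714 genes with a mean of at least 100 normalized counts. For Fos they were Zfp36 (r = 0.86 over 20 libraries), Bcr (0.83) and Btg2 (0.83), and for Jun Btg2 (0.78), Rhoc (0.76) and Ezh1 (0.76). Those of Junb were Dusp1 (0.91), Bcl2l1 (0.89) and Ppp1r15a (0.87), and those of Jund were Hsf1 (0.76), Trim35 (0.75) and Crlf3 (0.73). Fosb was nearest to Jade2 (0.85), Doc2b (0.81) and Wipf2 (0.80), and Fosl2 to Mphosph9 (0.84), Hipk3 (0.83) and Unc5b (0.83). After centring by time point, r was 0.49 for Fos and Zfp36, 0.55 for Fos and Btg2, 0.78 for Fosb and Jade2 and 0.89 for Junb and Dusp1. No gene stood in the lists of both Fosb and Fos, but lists of 3 genes out of 10714 are too short to compare members.

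Fosb and Junb also varied in opposite directions with the share of reads on genes. Against the log2 odds that a read lay on a gene, r was -0.57 for Fosb and 0.68 for Junb over the 20 libraries, and -0.78 and 0.73 after centring by time point. For Fosl2 it was -0.53 and -0.54, for Jun 0.45 and 0.54, for Jund 0.31 and 0.47 and for Fos 0.26 and 0.16. Of the 6 members past the filter, Fos had the weakest relation with this measure. ZT7 replicate 2 (62.3%) and ZT13 replicate 5 (79.9%) had the largest shares of their time points, and r without them was not computed. In the other ZT7 libraries Fosb was 650 at 37.7%, 483 at 17.5%, 487 at 15.5% and 732 at 12.7%. The highest Junb value at ZT7, 3073, was at 17.5%. With the share as a covariate, the Fosb difference from ZT7 to ZT19 turned from -0.44 to 0.53 and that of Junb went from 1.26 to 0.15. That of Jun went from 0.53 to -0.00045, of Jund from 0.29 to -0.18 and of Fosl2 from 0.04 to 0.71. For Fos it went from 0.99 to 0.87.

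**Figure D5:**
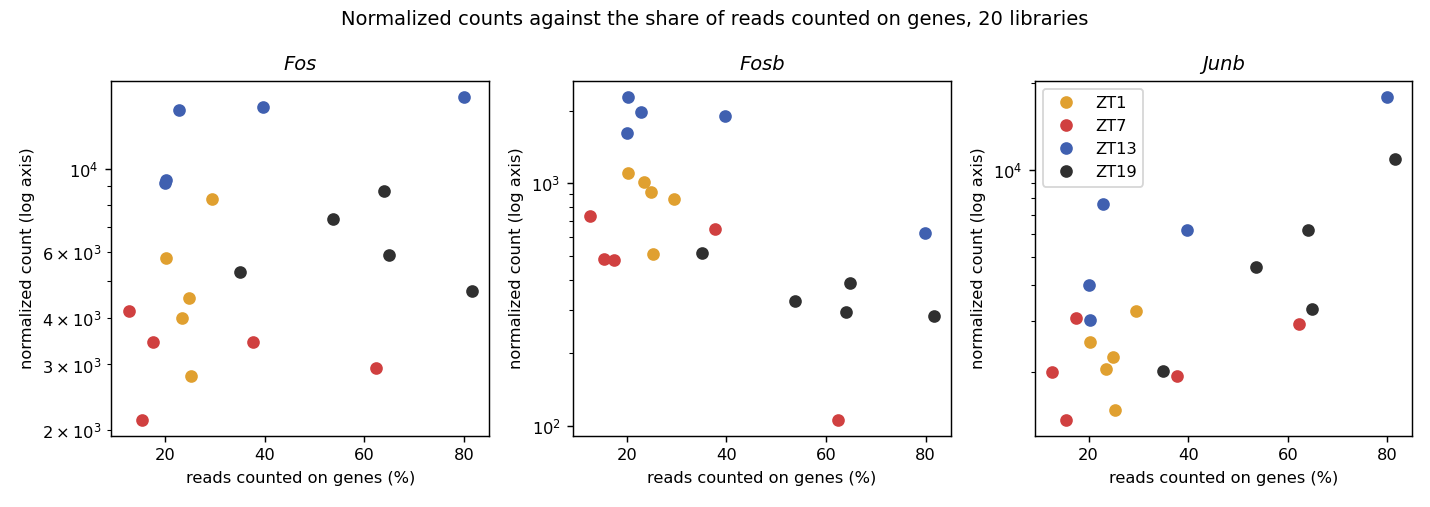
Normalized counts (log axis) of Fos, Fosb and Junb in 20 libraries against the percent of reads counted on genes, colored by time point. Within a time point, Fosb is lower (r = -0.78 after centring) and Junb higher (r = 0.73) in libraries with a larger share, whereas ZT13 libraries of Fos lie above the others at 20.1% as at 79.9%.

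The keratinocyte markers moved the opposite way from most members. Against the mean log2 level of the 12 markers, r over 20 libraries was -0.68 for Fos, -0.69 for Fosb, -0.54 for Jun and -0.45 for Junb, and after centring it was -0.39, -0.05, -0.25 and -0.38. Fosl1 went the same way as the markers (0.67, and 0.53 after centring). With this level as a covariate 0 of 19209 genes passed edgeR's test among the time points, with 2677 genes and 3 members (Fos, Fosb and Junb) at an unadjusted p of 0.05 or less. The difference from ZT7 to ZT13, whose standard errors were larger in this fit, was then 1.39 ± 0.59 (SE) for Fos and 1.76 ± 0.65 for Fosb, but 0.63 ± 0.75 for Jun, 0.68 ± 0.81 for Junb and 0.33 ± 0.62 for Jund. That from ZT13 to ZT19 went from -0.98 to -0.35 ± 0.63 for Fos and from -0.52 to 0.62 ± 0.84 for Junb, was -0.084 ± 0.77 for Jun and -0.011 ± 0.64 for Jund, and was -2.20 ± 0.75 for Fosb. ZT13 also had the lowest summed keratinocyte counts, with no overlap, whereas the mean log2 levels of ZT13 (7.58 to 9.90) and ZT1 (9.44 to 10.98) overlapped, and the part of these markers in the differences was not tested.

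Around the family, 123 tested genes of 8 lists of partners, regulators and targets were examined in edgeR (quasi-likelihood F-test, p adjusted by Benjamini-Hochberg over all genes), and 2 passed among the time points and 0 for the 24-h curve. The shares of all genes called are 0.422% and 0.0312%. At an unadjusted p of 0.05 or less there were 21 of 123 among the time points and 17 for the curve, beside 15.7% and 9.23% of all genes. DESeq2 called 11 among the time points, Maf, Rps6ka1, Dusp1, Zfp36, Zfp36l1, Btg2, Klf2, Klf6, Cyr61, Gadd45b and Rhob, and 6 for the curve, beside 3.22% and 0.683% of all genes. Zfp36 (tristetraprolin), which binds AU-rich elements and hastens the decay of short-lived transcripts, was highest at ZT13. Its mean there was 3178 ± 751 (SD, n = 5), against 1200 ± 316 at ZT1, 1042 ± 221 at ZT7 and 1649 ± 631 at ZT19 (edgeR, Benjamini-Hochberg adjusted p = 0.0236). Cyr61, a secreted matrix protein and immediate early gene, was highest at ZT19, with means of 2016 ± 823, 1699 ± 402, 4707 ± 2786 and 4976 ± 1364 from ZT1 to ZT19 (adjusted p = 0.0486, same test). ZT13 replicate 5 held 9575 of Cyr61, and without it the ZT13 mean was 3489 ± 690 (SD, n = 4). Neither was called with the keratinocyte level as a covariate (adjusted p = 0.309 and 0.258), and Cyr61 was not with the on-gene share either (0.242). As each library was left out, the Benjamini-Hochberg adjusted p of edgeR ran from 0.0167 to 0.0699 for Zfp36 and from 0.0322 to 0.107 for Cyr61, and between 0 and 5 list genes were called.

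By role, 0 of 16 tested dimer partners from the Atf, Batf, Jdp, Maf, Nfe2l and Bach genes were called, with 1 at an unadjusted p of 0.05 or less. The most abundant were Atf4 (248 TPM, mean of 20 libraries), a stress response factor, Nfe2l2 (142 TPM) and Nfe2l1 (122 TPM). Of 19 kinases that lead to AP-1, 0 were called and 1 passed unadjusted, with Mapk3 (185 TPM) and Map2k3 (78.2 TPM) highest in level. Of 12 factors that bind Fos and Jun promoters, 0 were called and 1 passed unadjusted, and Elk3 (246 TPM), a ternary complex factor, Stat3 (67.5 TPM) and Elk4 (32.3 TPM) led in level. Each of these counts is beside the 15.7% of all genes that passed unadjusted.

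Among 13 MAP kinase phosphatases and feedback inhibitors, 0 were called and 2 passed unadjusted, beside 15.7% of all genes. Dusp1, which dephosphorylates the kinases that activate AP-1 and was the gene most like Junb, had means of 3130 ± 574, 3742 ± 1601, 10446 ± 8755 and 11837 ± 7370 normalized counts from ZT1 to ZT19 (edgeR, Benjamini-Hochberg adjusted p = 0.0622). ZT13 replicate 5 held 25685, and without it the ZT13 mean was 6636 ± 2330 (SD, n = 4). Dusp6 (68.3 TPM) and Spry1 (61.6 TPM) were the next in level. Of 11 genes of mRNA decay and of the ubiquitin ligases of Fos and Jun, Zfp36 was the 1 called and 3 passed unadjusted, and its relatives Zfp36l1 (163 TPM) and Zfp36l2 (112 TPM) had their highest means at ZT1.

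Of 18 other immediate early genes, Cyr61 was the 1 called and 8 passed unadjusted, beside 0.422% and 15.7% of all genes. Their highest means were not all at one time, with 7 at ZT13, 5 at ZT1, 4 at ZT19 and 2 at ZT7, beside 18.1% of all genes at ZT13. Ier2 (663 TPM) and Klf2 (618 TPM), a flow-responsive factor of endothelium, were the most abundant. Of 24 target genes of AP-1, 0 were called and 4 passed unadjusted, and the metallothioneins Mt2 (1639 TPM) and Mt1 (1458 TPM) and the urokinase receptor gene Plaur (239 TPM) led in level. Of 10 heat shock genes known to be induced by tissue digestion, 0 were called and 1 passed unadjusted, and 7 of the 10 had their highest mean at ZT19 and 1 at ZT13, beside 27.0% and 18.1% of all genes tested. Hsp90ab1 (1150 TPM), Hspa8 (316 TPM) and Hspb1 (275 TPM) were the most abundant.

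The members differ in gene structure. In GENCODE M21 (GRCm38), Jun (chr4:95049034-95052222, minus strand) and Jund (chr8:70698949-70700616, plus strand) have a single exon, and the longest transcript of Junb (chr8:84974484-84978718, minus strand) has 1 exon as well. Fos (chr12:85473890-85477273, plus strand), Fosb (chr7:19302696-19310051, minus strand), Fosl1 (chr19:5447547-5455946, plus strand) and Fosl2 (chr5:32135801-32157842, plus strand) have 4 exons in their longest transcript. Jun overlaps the antisense gene Junos, Jund overlaps Gm11175, Junb overlaps Prdx2 and Fosl1 overlaps Ccdc85b, each on the other strand. The libraries carry no strand mark, so reads from the overlap of such pairs cannot be told apart by strand. Whether reads were counted by strand is not given in the sources used here. The RefSeq promoter window of Jund, chr8:70697489-70697738, lies upstream of its GENCODE start without adjoining it. That of Fosl2, chr5:32136222-32136471, lies downstream of its GENCODE start.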

How the data were processed

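RNA of sorted LECs was amplified as full-length cDNA (SMART-Seq v4, no molecular identifiers, no strand mark) and sequenced single-end. Per the submitters' processing notes and the study's methods, the authors mapped reads to mm10 with STAR, deposited raw read counts per gene symbol from HTSeq-count (1.0.0) and used DESeq2 (2.11.40.6). The annotation they counted on is not given in the sources used here. Reads assigned to no gene (18.4% to 87.3% of a library) stayed out of library sizes and tests. Here edgeR 4.0.16 (R 4.3.3) was run on the counts of all 20 libraries with TMM scaling, filterByExpr (19209 genes kept), a quasi-likelihood F-test among the 4 time points, a 24-h cosine curve, and a threshold of 0.05 after Benjamini-Hochberg adjustment. It was checked on simulated data. Normalized counts are counts over the effective library size relative to its geometric mean, with a pseudocount of 1 on log2 scales. TPM used exon lengths of GENCODE M21 (GRCm38), found for 23666 of 24062 symbols (98.4%, 916 by an older symbol). Promoters came from a RefSeq table (GRCm38.p6), with 6 of 7 members matched by symbol. Replicates were pools of mice, and p-values measure the spread between such pools. Depth per library is given above, and floors cover counting error only.

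The members, lists and markers were chosen with earlier results of these data known. Named genes were the 7 members, called genes of the lists, the 3 most abundant of each list, the 3 genes most like each member, and marker genes. One gene that this rule names is not reported here. Alternatives were DESeq2 1.42.0, RLE scaling, library totals, other filters, a replicate block, covariates, and leaving out each library. Leaving out ZT7 replicate 2 and ZT13 replicate 5 together was chosen after seeing the data.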

Additional observations from a re-analysis of the deposited data

Results flagged for a closer look

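A pair of Fosb values lay far below the other 4 libraries of their time point. In ZT7 replicate 2 the gap to the next library was 0.784 of the range of the group on the log2 scale, and in ZT13 replicate 5 it was 0.739. These gaps exceed Dixon's critical value at the 95% level for 5 samples. In all, 28 groups of members and time points were examined, and chance gives about 1.4 such values among them. Both libraries had an unusually large share of reads on genes for their time point (62.3% and 79.9%), and its part in the Fosb values was not tested.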

How the results depend on the processing

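Leaving out 1 library at a time, the genes called among the time points ran from 30 to 178, the members among them from 0 to 3, the list genes among them from 0 to 5 and the genes called for a 24-h curve from 0 to 10. The members called were 0 without ZT13 replicate 4, 1 (Fosb) without ZT1 replicate 3, ZT7 replicate 3, ZT7 replicate 4 or ZT13 replicate 2, and 3 (with Junb) without ZT19 replicate 4. The genes called were 53 without ZT1 replicate 1, 47 without ZT1 replicate 3, 40 without ZT7 replicate 3, 49 without ZT7 replicate 4, 30 without ZT13 replicate 4, 53 without ZT19 replicate 3, 178 without ZT19 replicate 4 and 41 without ZT19 replicate 5. DESeq2 called 569 genes among the time points, with 4 members and 11 list genes, and 75 for the curve, with 2 members and 6 list genes. When each library's on-gene share entered as a covariate, 49 genes, 1 list gene and 3 genes for the curve were called, Cyr61 had an adjusted p of 0.242, the ZT7 to ZT19 difference reversed for Fosb (0.53) and was 0.15 for Junb. With the keratinocyte level as a covariate, 0 genes, 0 members and 0 list genes were called among the time points, and 4 genes for the curve. The log2 difference from ZT7 to ZT13 was then 1.39 for Fos, 0.63 for Jun, 0.68 for Junb and 0.33 for Jund, and that from ZT13 to ZT19 was -0.35 for Fos, -0.084 for Jun, 0.62 for Junb and -0.011 for Jund. Without ZT7 replicate 2 and ZT13 replicate 5, 843 genes, 3 members (Fos, Fosb and Junb) and 10 list genes were called among the time points, 20 genes and 2 list genes for the curve, and the Junb difference from ZT13 to ZT19 was 0.26. The cause was not tested for any of these. Of 696 alternative values of 24 member differences, 685 moved by less than the SD of that gene between replicates (0.43 to 0.76 on the log2 scale). Most of the 696 came from leaving out 1 library, often from neither time point compared. The count therefore does not measure how stable the differences are. Leaving out 1 library turned the sign of Junb from ZT13 to ZT19 (-0.94 to 0.06), Fosl2 from ZT1 to ZT13 (-0.28 to 0.04) and Fosl2 from ZT7 to ZT19 (-0.38 to 0.37). RLE scaling moved the median gene by up to -0.23 and library totals by up to 0.39 on the log2 scale, and the Fosl2 difference from ZT7 to ZT19 went from 0.04 to -0.27 under RLE scaling.

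Replicate numbers did not pair the libraries, since in 0 of 6 pairs of time points did all same-numbered libraries correlate above 0.1 (r from -0.54 to 0.34), and 7 of 30 correlated best with their own number. With a replicate block, 31 genes, 1 member (Fosb) and 0 list genes were called among the time points and 0 for the curve, with an adjusted p of 0.0741 for Zfp36 and 0.117 for Cyr61.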
